A study of Homo sapiens with 12 samples.

Results

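The genes of the mitochondrial ribosomal proteins were followed in HCT116, an established line from a human colorectal carcinoma, after a DNA-damaging drug and after overexpression of SMC5/6 subunits. They were taken as every row of the deposited table whose whole name is MRPL or MRPS followed by a number and, where present, the letter A, B or C, which gave 52 of 57908 loci. Cells had been transfected with an NSE4A-flag plasmid (NSE4 cells), an SMC5-flag plasmid (SMC5 cells) or a control plasmid (GFP cells, named GFP in the sample titles and an empty vector in the design text, genotype WT). After 24 h each culture was divided and given 1000 nM doxorubicin or PBS for 24 h, so that all groups had gone through transfection. This made 6 groups of 2 libraries each: NSE4, SMC5 and GFP cells, each with doxorubicin (DOX) and each with PBS. SMC5 and NSE4 are subunits of the SMC5/6 complex, a ring-shaped ATPase that acts in DNA repair. Doxorubicin is an anthracycline that inserts between DNA bases and holds topoisomerase II on cut DNA. The study asked how the complex restrains growth and favours doxorubicin-induced death, and neither the promoter of the plasmids nor any selection of transfected cells is stated.

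The mitoribosome is the ribosome of the mitochondrial matrix, and it translates the mRNAs of mitochondrial DNA, which code for subunits of the respiratory chain and of ATP synthase. Its ribosomal RNAs are transcribed in the mitochondrion, whereas all its proteins are encoded in the nucleus, made in the cytosol and imported. One set of these proteins descends from the proteins of the bacterial ribosome and another set is found in mitochondria but not in bacteria. Of the 52 genes, 36 coded for proteins of the large subunit, which forms the peptide bonds, and 15 for proteins of the small subunit, which reads the mRNA. Among the large subunit genes was MRPS18A, named for the small subunit although its product sits in the large one. The remaining gene, MRPS36, is named as a mitoribosomal protein, but its product is a subunit of the ketoglutarate dehydrogenase complex. A bacterial counterpart was assigned to 30 of the products, and 21 were classed as specific to mitochondria. MRPS18A was counted among the 21, although it shares its S18 name with MRPS18C, which was assigned a bacterial counterpart. A further 26 MRP genes stood in loci that the table shares between several genes, and these were not counted.

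Values were FPKM, fragments per kilobase of transcript and per 1e6 mapped fragments, so levels of different genes can be compared. All 52 genes were detected in every library and none was under 1 FPKM in any. Depth, estimated from the spacing of low values, was 12.9 to 19.5 M (1e6 fragments) per library, and mitochondrially encoded loci took 28.9 to 46.2% of the summed FPKM. For SMC5 cells with doxorubicin the 2 columns held 1091 identical values above 0, against 0 in every other pair. Only 7 loci were above 0 in 1 of these columns alone, against 4216 to 5291 loci in the other pairs, yet their levels were not the same throughout and differed by up to 0.36 on the log2 scale among the 52 genes (MRPL41). Their mean was used as 1 sample, which left 11 samples. The plasmids were visible in the libraries. NSMCE4A, which codes for NSE4A, stood at 4070 to 6290 FPKM in NSE4 cells, against 32.6 to 89.4 FPKM in all other cells. SMC5 stood at 811 to 979 FPKM in SMC5 cells, against 7.02 to 34.4 FPKM in all other cells. The epithelial markers with a locus of their own, 6 of 9, summed to 1810 to 2080 FPKM with doxorubicin and 1610 to 1870 FPKM with PBS. Most of that sum was KRT8, at 1210 to 1730 FPKM. EPCAM, CDH1, CLDN4 and ESRP1 lay between 24.2 and 298 FPKM, whereas VIL1 was low, at 0.00654 to 2.43 FPKM. Of the markers of other cell types with a locus of their own, 10 of 12, only COL1A1, GFAP and PDGFRB reached 1 FPKM, and PTPRC, CD3E and HBB were at or near 0. These 10 summed to 18.4 to 30.4 FPKM with doxorubicin and 18.7 to 26.9 FPKM with PBS, most of it COL1A1, at 15.6 to 27.0 FPKM. No label says that the libraries within a group are separate cultures, so p-values reflect only how far these samples spread, a spread that may be technical.

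The mitoribosomal genes differed in level. Their means over the 11 samples ran from 9.01 FPKM for MRPL50, a mitochondria-specific protein of the large subunit, to 122 FPKM for MRPL51, another of that kind. Next to MRPL51 came MRPL27 at 103 FPKM, MRPS27 at 95.1 FPKM, MRPL43 at 91.6 FPKM and MRPL41 at 82.9 FPKM. The mean of MRPS27 includes a GFP library with PBS at 207 FPKM. In GENCODE, exons on the other strand overlap 31.3% of the exon bases of MRPL51 and 36.9% of those of MRPL43. The read strand is not given, so their levels may include reads of other genes. MRPL27 is the counterpart of a bacterial protein that reaches towards the peptidyl transferase centre, and MRPS27 is a pentatricopeptide repeat protein of the small subunit, while MRPL43 and MRPL41 are mitochondria-specific proteins of the large one. At the lower end, above MRPL50, stood MRPL57 at 16.7 FPKM, MRPS11 at 17.4 FPKM, MRPS31 at 18.6 FPKM and MRPL40 at 20.6 FPKM. MRPL50, with 7.52 to 10.1 FPKM, lay below MRPL57, with 14.7 to 19.1 FPKM, without overlap. The other neighbours among these genes overlapped in their samples, as in MRPS31, with 15.3 to 22.1 FPKM, and MRPL40, with 15.1 to 27.5 FPKM. The FPKM of all 52 genes summed to 2270, 2430 and 2520 FPKM (lowest, median and highest of 5 doxorubicin samples), against 2350, 2450 and 2650 FPKM (6 PBS samples). The sums overlapped between treatments. As a share of all FPKM outside the mitochondrially encoded loci, however, the genes took 3750 to 4060 FPKM per 1e6 FPKM in doxorubicin libraries. In PBS libraries they took 3290 to 3690, and on that basis the treatments did not overlap. Both SMC5 columns with doxorubicin were counted here. Such a share also moves with the FPKM of all other genes, and shares of other gene groups were not compared. The summed FPKM of the 52 genes averaged 2410 with doxorubicin and 2460 with PBS, so the shares do not reflect a rise of that sum. The tests below used the FPKM as deposited.

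**Figure D1:**
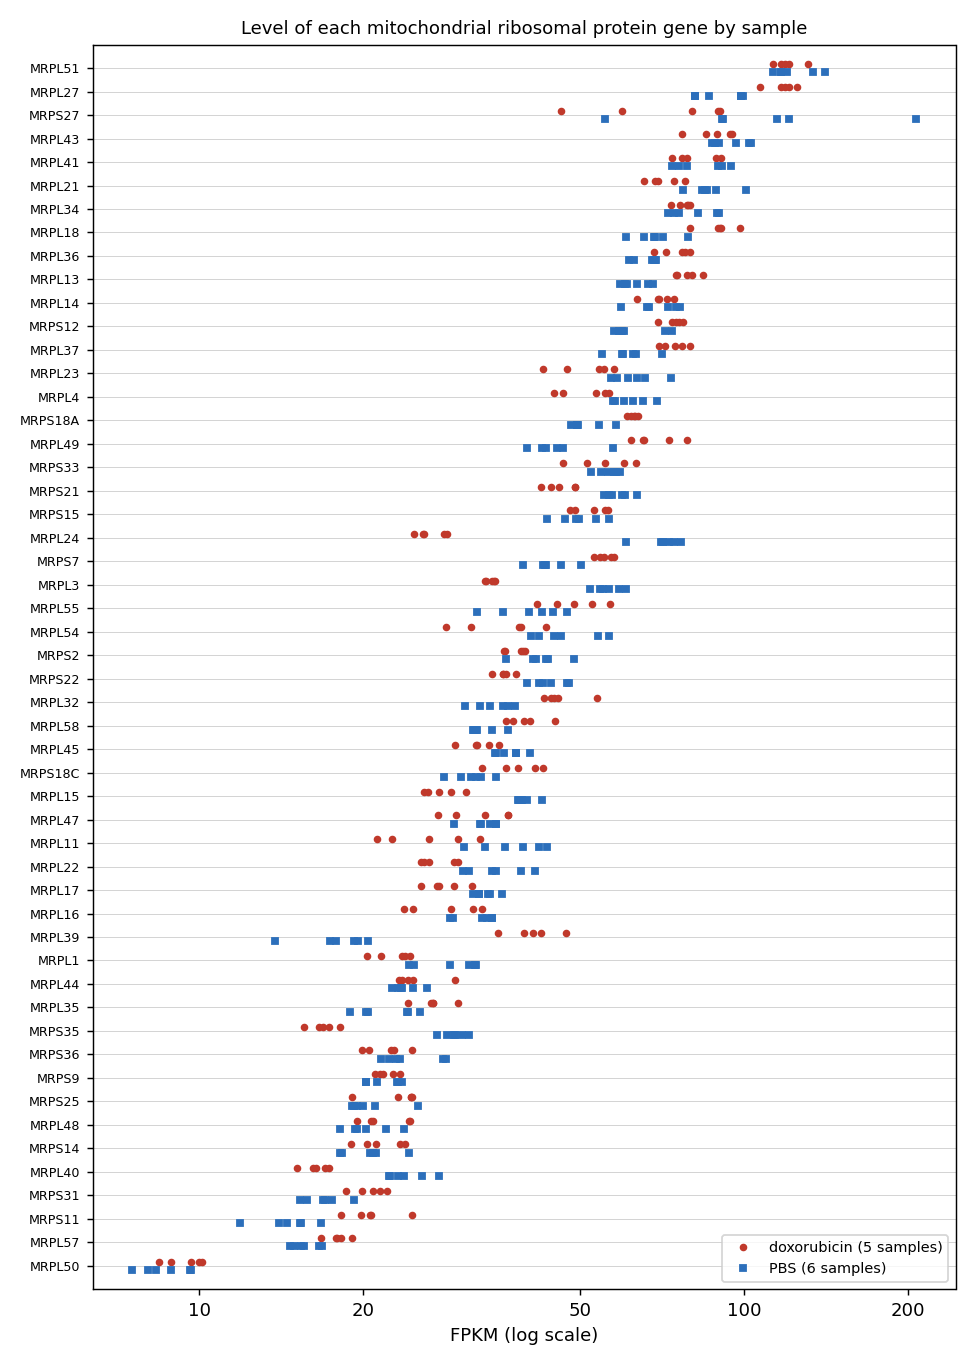
FPKM (log scale) of each of the 52 mitochondrial ribosomal protein genes, ordered by mean level, with 1 circle per doxorubicin sample (5) above 1 square per PBS sample (6). Most genes have overlapping samples, MRPL24, MRPL3 and MRPS35 lie lower with doxorubicin, MRPL39 lies higher, and MRPS27 is scattered from 46.2 to 207 FPKM.

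Promoters of 6 genes that changed with doxorubicin are shown so that the letters can be read beside those changes. They are the 3 of smallest p in each direction apart from MRPL13, which is not shown. Each is the stretch from 250 bases before to 50 after the gene's start (RefSeq, GRCh38.p14), 5′ to 3′ on the gene's strand. The first 3 genes were higher and the last 3 were lower. Capitals mark the ETS core.
MRPL39 promoter, chr21:25607432-25607731, minus strand: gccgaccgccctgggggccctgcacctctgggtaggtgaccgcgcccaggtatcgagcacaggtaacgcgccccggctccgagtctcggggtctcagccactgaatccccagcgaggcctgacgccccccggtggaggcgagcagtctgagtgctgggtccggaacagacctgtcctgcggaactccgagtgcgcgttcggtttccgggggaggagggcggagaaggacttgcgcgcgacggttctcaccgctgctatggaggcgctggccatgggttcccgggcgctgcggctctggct
MRPS11 promoter, chr15:88467458-88467757, plus strand: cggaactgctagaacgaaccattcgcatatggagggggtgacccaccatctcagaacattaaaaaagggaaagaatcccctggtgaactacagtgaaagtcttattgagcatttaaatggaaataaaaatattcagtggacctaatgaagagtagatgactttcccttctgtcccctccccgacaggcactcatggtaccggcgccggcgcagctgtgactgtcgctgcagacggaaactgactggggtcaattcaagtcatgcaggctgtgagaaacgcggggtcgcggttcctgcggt
MRPL49 promoter, chr11:65121933-65122232, plus strand: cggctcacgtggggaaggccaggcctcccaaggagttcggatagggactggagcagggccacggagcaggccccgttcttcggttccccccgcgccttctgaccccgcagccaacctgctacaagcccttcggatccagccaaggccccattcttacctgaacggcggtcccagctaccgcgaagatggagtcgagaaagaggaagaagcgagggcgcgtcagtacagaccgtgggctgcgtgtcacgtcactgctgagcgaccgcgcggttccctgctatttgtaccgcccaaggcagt
MRPL24 promoter, chr1:156741039-156741338, minus strand: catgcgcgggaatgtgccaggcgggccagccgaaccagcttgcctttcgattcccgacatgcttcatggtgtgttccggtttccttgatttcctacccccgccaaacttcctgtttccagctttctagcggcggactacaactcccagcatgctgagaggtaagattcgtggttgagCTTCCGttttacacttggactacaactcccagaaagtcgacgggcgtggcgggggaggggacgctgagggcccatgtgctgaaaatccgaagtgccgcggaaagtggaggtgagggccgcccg
MRPS35 promoter, chr12:27710582-27710881, plus strand: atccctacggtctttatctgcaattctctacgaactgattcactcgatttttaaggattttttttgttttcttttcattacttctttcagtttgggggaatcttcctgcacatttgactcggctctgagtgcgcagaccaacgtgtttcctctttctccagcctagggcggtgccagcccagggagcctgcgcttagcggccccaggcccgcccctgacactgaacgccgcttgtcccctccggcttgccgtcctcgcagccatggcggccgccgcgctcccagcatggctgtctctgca
MRPL3 promoter, chr3:131502922-131503221, minus strand: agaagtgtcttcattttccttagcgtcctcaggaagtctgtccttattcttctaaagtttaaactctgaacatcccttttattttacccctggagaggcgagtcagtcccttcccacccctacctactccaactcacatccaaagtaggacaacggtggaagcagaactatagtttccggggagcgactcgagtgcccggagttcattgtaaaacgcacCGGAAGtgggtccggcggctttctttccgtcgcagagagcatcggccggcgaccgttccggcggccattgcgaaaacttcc
Nuclear respiratory factors and ETS proteins are known activators of nuclear genes for mitochondrial proteins. The letters searched, on both strands, were GCGCNTGCG for NRF1, CGGAAG for the core bound by ETS proteins (which include GABP) and AAGATGGCG for YY1. No member had sites of different motifs that overlapped. Of the 46 members with a promoter entry, 24 (52.2%) held the ETS core, against 19.5% of the 35116 RefSeq promoters of that length, which include those of noncoding genes. NRF1 letters were in 9 (19.6%), against 7.47%, and YY1 letters in 5 (10.9%), against 1.75%. Between the directions of change described next, the ETS core was in 7 of 14 promoters of genes that were higher, in 8 of 13 of genes that were lower and in 9 of 19 of those that did not pass. Of the 6 promoters shown, those of MRPL24 and MRPL3 held it, and the other 4 held none of the motifs.

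Doxorubicin moved mitoribosomal genes in both directions, in equal numbers. Averaged over the 3 plasmids, 16 of the 52 genes rose and 16 fell in limma's test on log2(FPKM + 1), at a Benjamini-Hochberg adjusted p under 0.05 over all 15833 loci tested. MRPL39 rose most and MRPL24 fell most. Of all loci 51.6% were called (28.0% higher, 23.6% lower), and 58.2% of the 7102 loci within the range of mean levels of the 52 genes, so that 32 of 52 (61.5%) was near the background. The median log2 change of the 52 genes was -0.02, against 0.03 over all loci, and the median size of the change was 0.26, against 0.32. In bulk samples a change of RNA per cell and a change in the cells present cannot be told apart.

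**Figure D2:**
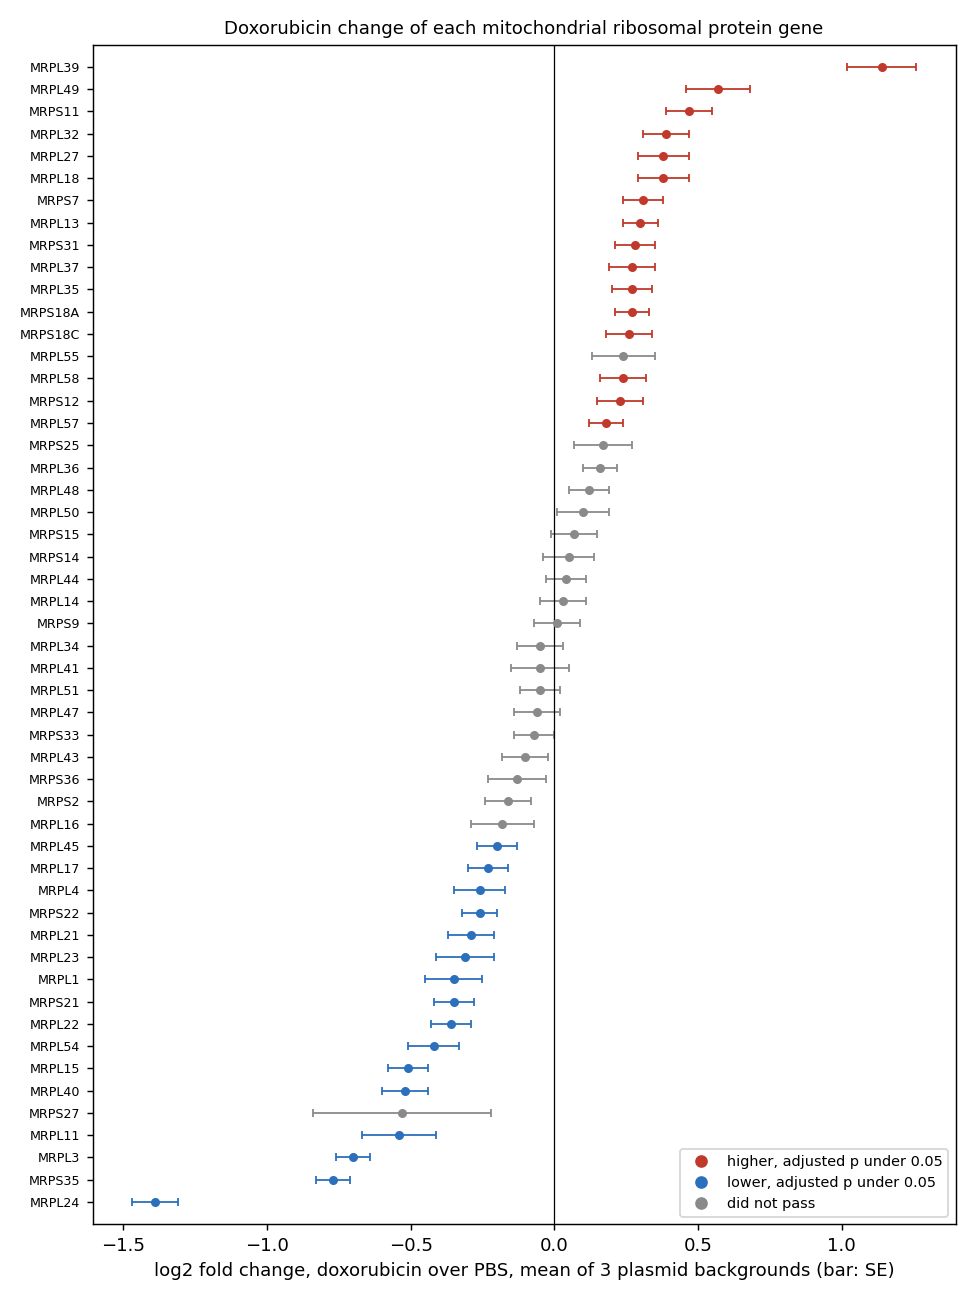
Log2 fold change of each gene, doxorubicin over PBS, averaged over the 3 plasmid backgrounds, with bars of 1 SE and colours for the outcome of limma's test. Higher and lower genes are equally many (16 each), from 1.14 for MRPL39 to -1.39 for MRPL24.

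The largest falls were those of MRPL24, MRPS35 and MRPL3. MRPL24, whose bacterial counterpart in E. coli starts the assembly of the large subunit and lies by the exit of the peptide tunnel, stood at 25.7 FPKM in SMC5, 24.8 and 28.1 in NSE4 and 28.5 and 25.8 in GFP cells with doxorubicin. With PBS it stood at 60.8 and 76.5 FPKM in SMC5, 70.3 and 72.9 in NSE4 and 70.9 and 74.3 in GFP cells. The treatments were far apart in every background, with a log2 change of -1.39 (SE 0.08, adjusted p = 4.92e-06), which ranked 458 of 15833 loci by size. MRPL3, whose E. coli counterpart is the other protein that starts that assembly, stood at 34.9 FPKM in SMC5, 34.4 and 33.5 in NSE4 and 33.6 and 34.7 in GFP cells with doxorubicin. With PBS it stood at 56.5 and 55.1 FPKM in SMC5, 52.1 and 60.6 in NSE4 and 58.9 and 54.3 in GFP cells. The doxorubicin samples lay close together and below all PBS samples, with a log2 change of -0.70 (SE 0.06, adjusted p = 4.7e-05). MRPL15, the counterpart of another bacterial large subunit protein, averaged 27.9 ± 2.10 FPKM with doxorubicin (SD, n = 5) and 39.6 ± 1.56 FPKM with PBS (SD, n = 6). It fell by 0.51 on the log2 scale (adjusted p = 3.38e-04), with no overlap.

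The largest fall in the small subunit was that of MRPS35, a mitochondria-specific protein of its head. It stood at 16.6 FPKM in SMC5, 15.6 and 17.3 in NSE4 and 16.9 and 18.1 in GFP cells with doxorubicin. With PBS it stood at 29.5 and 27.3 FPKM in SMC5, 28.5 and 30.4 in NSE4 and 29.4 and 31.3 in GFP cells. No samples overlapped, and the log2 change was -0.77 (SE 0.06, limma adjusted p = 2.96e-05). MRPL40, in the central protuberance of the large subunit, had 15.1, 16.4 and 17.3 FPKM with doxorubicin (lowest, median, highest), against 22.3, 23.5 and 27.5 FPKM with PBS. Its samples did not overlap (log2 change -0.52, adjusted p = 6.57e-04). Of the other genes of smallest p that fell, MRPS21, the counterpart of bacterial S21, changed by -0.35 and MRPL22, which lines the peptide tunnel, by -0.36. MRPS22, a mitochondria-specific small subunit protein, changed by -0.26. Their samples did not overlap either, whereas those of MRPL54, a mitochondria-specific large subunit protein (-0.42), and of MRPL11, at the base of the factor-binding stalk (-0.54), did. The remaining genes that fell, MRPL1, MRPL4, MRPL17, MRPL21, MRPL23 and MRPL45, changed by -0.35 to -0.20, with no overlap in MRPL4 and MRPL17.

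MRPL39, a mitochondria-specific large subunit protein related in sequence to threonyl-tRNA synthetase, made the largest rise. It stood at 39.4 FPKM in SMC5, 42.4 and 40.9 in NSE4 and 35.4 and 47.2 in GFP cells with doxorubicin. With PBS it stood at 17.4 and 20.4 FPKM in SMC5, 13.8 and 19.6 in NSE4 and 17.8 and 19.2 in GFP cells. Every doxorubicin sample exceeded every PBS sample, with a log2 change of 1.14 (SE 0.12, limma adjusted p = 9.3e-05, rank 855 of 15833). MRPL49, another mitochondria-specific protein of that subunit, averaged 68.8 ± 6.73 FPKM with doxorubicin (SD, n = 5) and 45.8 ± 6.10 FPKM with PBS (SD, n = 6). Its lowest doxorubicin sample, 61.9 FPKM, was above its highest PBS sample, 57.4 FPKM, and its log2 change was 0.57 (adjusted p = 0.00285). In GENCODE, 12.2% of its exon bases lie under exons of FAU and SYVN1 on the other strand, and the labels do not give the strand of the reads.

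In the small subunit the largest rise was that of MRPS11, the counterpart of a bacterial protein of the platform next to the mRNA exit. It stood at 19.8 FPKM in SMC5, 18.2 and 20.7 in NSE4 and 20.6 and 24.6 in GFP cells with doxorubicin. With PBS it stood at 11.9 and 14.0 FPKM in SMC5, 15.3 and 15.4 in NSE4 and 14.5 and 16.7 in GFP cells. The samples did not overlap, with a log2 change of 0.47 (SE 0.08, limma adjusted p = 0.00188). MRPS7, a protein of the head with a bacterial counterpart, changed by 0.31 (55.4 ± 1.91 FPKM with doxorubicin, SD, n = 5, and 44.1 ± 3.70 FPKM with PBS, SD, n = 6). MRPS31, also in the head, changed by 0.28, and its samples overlapped. MRPS12, the counterpart of the bacterial decoding centre protein S12, changed by 0.23, and MRPS18C, a counterpart of bacterial S18, by 0.26. The samples of both overlapped between treatments, and neither call was followed by gene through the alternatives. MRPS12 passed narrowly (limma adjusted p = 0.048), and exons on the other strand overlap 40.2% of the exon bases of MRPS18C.

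The other large subunit genes that rose had smaller changes. MRPL32, which is matured in mitochondria by the m-AAA protease, averaged 46.2 ± 4.33 FPKM with doxorubicin and 34.8 ± 2.70 FPKM with PBS (SD, n = 5 and 6), a log2 change of 0.39 with no overlap. MRPL18, in the central protuberance, averaged 89.8 ± 6.67 FPKM with doxorubicin and 68.8 ± 6.13 FPKM with PBS, a change of 0.38. MRPL27 averaged 118 ± 6.71 FPKM with doxorubicin and 90.9 ± 8.94 FPKM with PBS, also a change of 0.38. Both had doxorubicin samples that were all above the PBS samples. MRPL13, a counterpart of an early-binding bacterial protein, averaged 78.7 ± 3.80 FPKM with doxorubicin and 63.1 ± 3.56 FPKM with PBS, a change of 0.30 with no overlap. MRPS18A changed by 0.27, and 47.0% of its exon bases lie under exons of RSPH9 on the other strand. MRPL35 and MRPL37 each changed by 0.27, MRPL58 by 0.24 and MRPL57 by 0.18. MRPL58 is a peptidyl-tRNA hydrolase built into the large subunit. Its call was lost in 7 of 21 alternative analyses and that of MRPL57 in 8 of 21, while the 10 genes of smallest p in each direction stayed called in all 21.

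**Figure D3:**
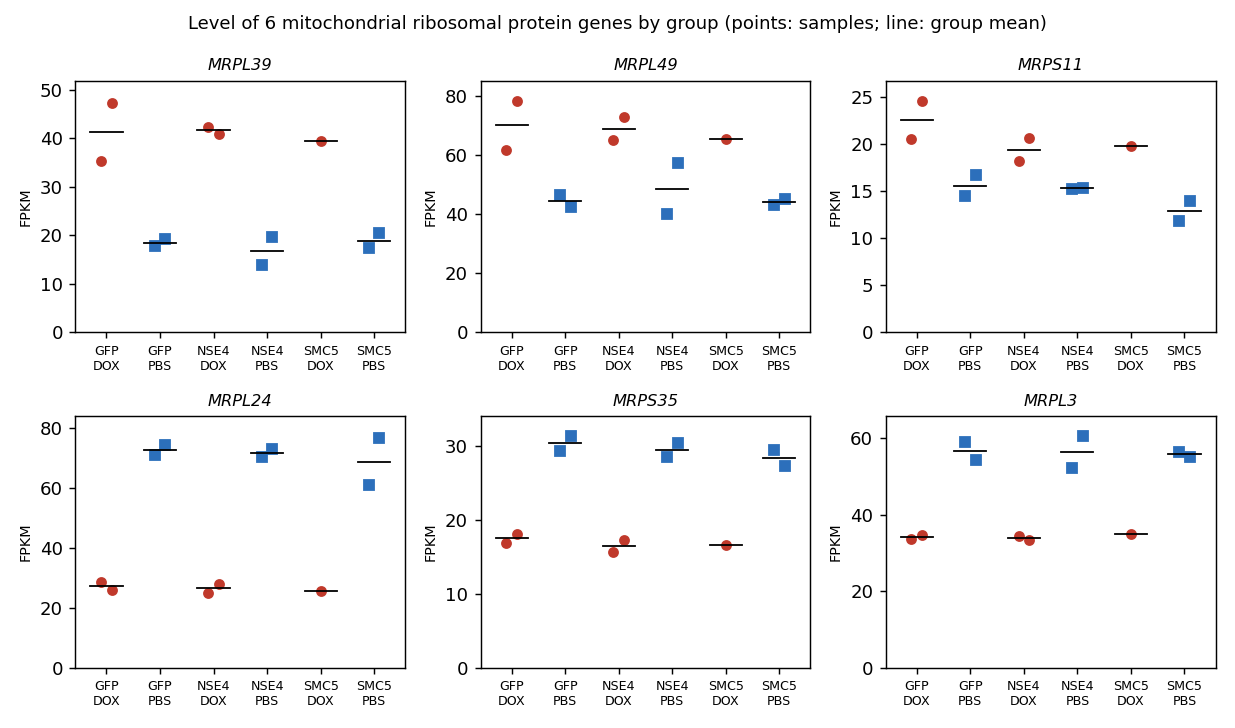
FPKM of the 3 genes shown with their promoters that rose (top) and the 3 that fell (bottom), by group, with 1 point per sample, circles for doxorubicin and squares for PBS, and lines at group means (2 samples a group, 1 in doxorubicin-treated SMC5 cells). In each plasmid background the doxorubicin points lie on 1 side of the PBS points.

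By subunit and by descent the changes were mixed. In the large subunit 11 genes rose and 13 fell of 36, with a median of -0.05, and in the small subunit 5 rose and 3 fell of 15, with a median of 0.05. Genes with a bacterial counterpart included 9 that rose and 11 that fell of 30 (median -0.02). Those classed as mitochondria-specific included 7 that rose, MRPS18A among them, and 5 that fell of 21 (median 0.04). All doxorubicin samples lay above all PBS samples in 9 genes and below them in 10, against 22.0% and 18.6% of all loci. Together these are 36.5% of the 52 genes, against 40.6% of all loci. The change had a Spearman rho of -0.13 with the genomic span of the gene over the 52 genes, against -0.23 over 9560 coding loci, and of -0.08 with GC content, against 0.17. These correlations are across genes within the same samples and are given as a description.

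Among the 20 genes that did not pass, MRPS27 had the largest mean change and the largest scatter. It stood at 80.1 FPKM in SMC5, 90.5 and 89.4 in NSE4 and 46.2 and 59.6 in GFP cells with doxorubicin. With PBS it stood at 121 and 91.0 FPKM in SMC5, 115 and 91.3 in NSE4 and 207 and 55.6 in GFP cells. The GFP libraries with PBS were at opposite ends of the PBS range. The log2 change was -0.53 (SE 0.31, limma adjusted p = 0.181). It was -0.22 (adjusted p = 0.187) without GFP PBS replicate 1 and -0.84 (adjusted p = 0.00154) without GFP PBS replicate 2. Levels of the most abundant gene, MRPL51, overlapped, with 113, 119 and 131 FPKM with doxorubicin (lowest, median, highest) and 113, 119 and 141 FPKM with PBS. The 95% confidence interval of its log2 change ran from -0.22 to 0.11. MRPL41 averaged 81.6 ± 7.52 FPKM with doxorubicin and 83.9 ± 8.90 FPKM with PBS (SD, n = 5 and 6), and MRPL43 averaged 88.1 ± 7.42 and 94.5 ± 7.08 FPKM in those groups. MRPL50, the least abundant gene, averaged 9.42 ± 0.734 FPKM with doxorubicin and 8.67 ± 0.863 FPKM with PBS, and MRPS36 averaged 22.1 ± 1.90 and 24.4 ± 2.97 FPKM. All of these overlapped between treatments.

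The response to doxorubicin was then taken in each plasmid background. In NSE4 cells 2 genes rose and 8 fell, against 30.2% of all loci called (16.3% higher, 13.9% lower). In SMC5 cells 2 rose and 4 fell, against 20.9% of all loci (9.87% lower, the others higher). Their doxorubicin arm is 1 sample, so every test that uses it assumes that this sample varies like those of the other groups, and a fit of only the SMC5 samples called 0 of the 52 genes. In GFP cells 5 rose and 6 fell, against 31.1% of all loci (17.0% higher, 14.1% lower). The standing of the 52 genes beside all loci depended on the threshold. At an unadjusted p under 0.05 in limma's test, 34.6% of them passed in NSE4 and 40.4% in GFP cells, against 41.9% and 42.4% of all loci. In SMC5 cells their share lay above that of all loci at the unadjusted threshold and below it at the adjusted one. At the adjusted threshold 19.2% were called in NSE4 and 21.2% in GFP cells, below the shares of all loci. The counts varied with single libraries, from 6 to 14 in NSE4 cells (6 without NSE4 doxorubicin replicate 1), from 3 to 7 in SMC5 cells (3 without SMC5 PBS replicate 1) and from 6 to 13 in GFP cells. In GFP cells they were 6 without doxorubicin replicate 2 and 7 without either PBS replicate.

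MRPL24, MRPL3, MRPL15 and MRPS35 fell and MRPL39 rose in all 3 backgrounds. The log2 change of MRPL24 was -1.40 in NSE4, -1.37 in SMC5 and -1.39 in GFP cells. That of MRPS35 was -0.80, -0.74 and -0.76 in the same order, and that of MRPL3 was -0.71, -0.66 and -0.71. MRPL15 changed by -0.51 in NSE4, -0.58 in SMC5 and -0.45 in GFP cells, and MRPL39 by 1.29, 1.03 and 1.10. The largest limma adjusted p among these was 0.0169, for MRPL15 in SMC5 cells. In SMC5 cells the call of MRPL15 was lost without PBS replicate 1 (adjusted p = 0.0613) or 2 (0.0569), and that of MRPL39 without PBS replicate 1 (adjusted p = 0.0707). A further 9 genes passed in 1 or 2 of the backgrounds. MRPL40 fell by 0.63 in NSE4 cells (adjusted p = 0.00638) and by 0.53 in GFP cells (adjusted p = 0.0124), and MRPL32 rose in both (0.38 and 0.40). MRPS11 rose by 0.58 in SMC5 and by 0.50 in GFP cells. MRPL22 (-0.51), MRPS21 (-0.40) and MRPS22 (-0.38) passed in NSE4 cells, and MRPL49 (0.64), MRPL13 (0.37) and MRPL21 (-0.37) in GFP cells. MRPL21 passed narrowly there (limma adjusted p = 0.0494). Not every call was followed by gene through the alternatives. Those of MRPL22, MRPS21 and MRPS22 in NSE4 cells, of MRPL21 and MRPL32 in GFP cells and of MRPL15 in both were not. The calls of MRPL40, MRPL13, MRPL49 and MRPS11 in GFP cells were each lost without doxorubicin replicate 2 (adjusted p = 0.0654 to 0.153). Those of MRPL40, MRPL13 and MRPL49 were also lost without PBS replicate 2 (0.0765 to 0.128), and those of MRPL49 (0.0717) and MRPS11 (0.129) without PBS replicate 1. MRPL32 in NSE4 cells and MRPS11 in SMC5 cells, with adjusted p = 0.0476 and 0.0396, lost their calls in 9 of 22 alternatives each. A gene that passed in one background and missed in another is not thereby shown to differ.

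The direction was shared across backgrounds in 43 of the 52 genes (82.7%), against 74.2% of all loci, and in each of the 32 genes called on the average, against 8005 of the 8172 loci called on it. Genes called on an average of 3 backgrounds are chosen in part for a shared sign. The backgrounds have no samples in common. Across the 52 genes, the changes in NSE4 and GFP cells had a Pearson r of 0.92 (Spearman rho 0.92), those in SMC5 and GFP cells 0.91 (0.91) and those in SMC5 and NSE4 cells 0.94 (0.93). Over all 15833 loci, which include many of lower level, the Pearson r was 0.75, 0.71 and 0.70 (Spearman rho 0.80, 0.79 and 0.79) in the same order. These are correlations across genes, which are not independent replicates.

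**Figure D4:**
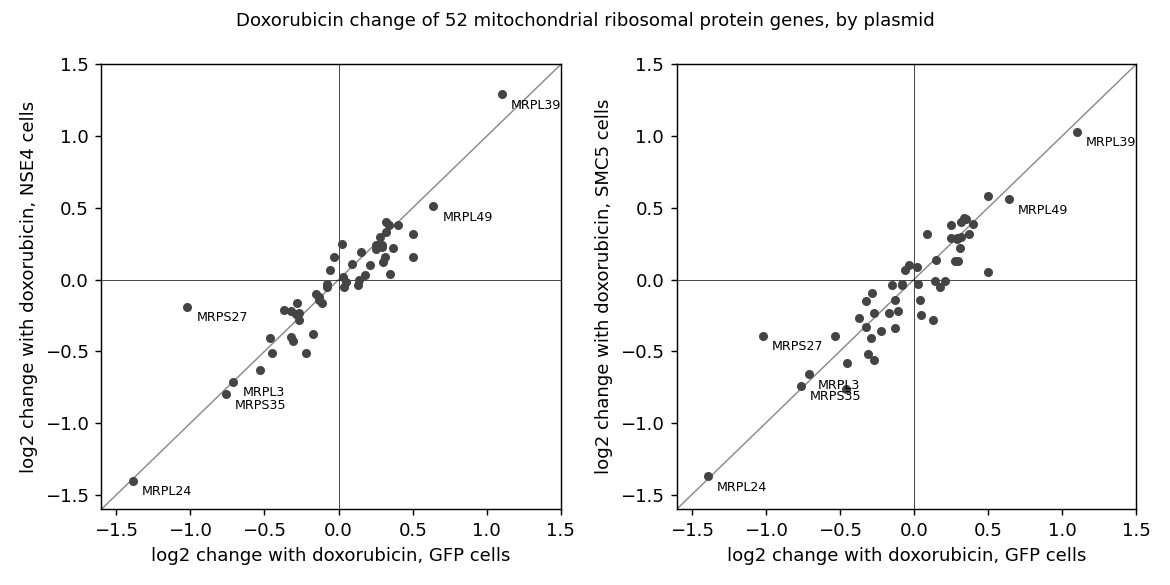
Log2 change with doxorubicin of the 52 genes in NSE4 cells (left, vertical axis) and SMC5 cells (right, vertical axis) against that in GFP cells (horizontal axis), with the line of equal change. Points lie along the line, with MRPS27 apart at -1.02 in GFP cells.

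Against GFP cells, neither plasmid changed a mitoribosomal gene past the threshold, with PBS or with doxorubicin. In limma's test 0 of 52 passed in NSE4 against GFP cells with PBS (0.0442% of all loci passed) and with doxorubicin (0.0568%). Likewise 0 of 52 passed in SMC5 against GFP cells with PBS (0%) and with doxorubicin (0.0316%). At an unadjusted p under 0.05 there were 2, both in NSE4 cells with PBS, and 0 in each of the other 3 comparisons. The 2 were MRPL54 and MRPL22. MRPL54 had 56.5 and 54.0 FPKM in NSE4 cells with PBS, against 40.7 and 42.1 FPKM in GFP cells with PBS. MRPL22 had 41.3 and 39.0 FPKM in NSE4 cells with PBS, against 30.5 and 34.5 FPKM in GFP cells with PBS. The NSE4 samples of both lay above the GFP samples, with log2 differences of 0.41 and 0.30 and an adjusted p of 1. With PBS the differences over the 52 genes ran from -0.16 (MRPL39) to 0.41 (MRPL54) for NSE4 and from -0.25 (MRPS11) to 0.20 (MRPL48) for SMC5. With doxorubicin they ran from -0.23 (MRPS14) to 0.77 (MRPS27) for NSE4 and from -0.35 (MRPL47) to 0.60 (MRPS27) for SMC5.

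The intervals bound the plasmid differences of single genes, given the spread of these samples, which may be technical. They were not adjusted for the number of genes. The 95% confidence interval of the difference lay within 1.5-fold in either direction for 48 genes in NSE4 against GFP cells with PBS and for 50 with doxorubicin. It did so for 51 genes in SMC5 against GFP cells with PBS and for 44 with doxorubicin. It lay within 2-fold for 51 of 52 genes in each of the 4 comparisons, and MRPS27 had the widest interval in each. The test of whether a plasmid altered the response to doxorubicin found 0 of 52 genes for NSE4 (0.0316% of all loci) and 0 of 52 for SMC5 (0.0189%), with 0 at an unadjusted p under 0.05 in both. For these the interval lay within 1.5-fold for 38 genes with NSE4 and 27 with SMC5, and within 2-fold for 51 and 49.

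Other genes of the mitochondrial translation system were taken from lists of known members. The share called in each list is given beside its counts, and that of all loci was 51.6%. Of 5 further mitoribosomal subunits, counting MRPL58 again, 1 rose and 2 fell (60.0%), with a median of -0.09. DAP3, a GTP-binding protein of the small subunit, averaged 72.6 ± 7.52 FPKM with doxorubicin and 87.8 ± 7.74 FPKM with PBS (SD, n = 5 and 6) and fell by 0.29 on the log2 scale (limma adjusted p = 0.0104). PTCD3, a pentatricopeptide repeat protein of that subunit, averaged 40.6 ± 2.35 and 48.0 ± 7.5 FPKM in those groups (-0.24). Of 18 assembly factors 6 rose and 6 fell (66.7%), with a median of 0.07. METTL15, an rRNA methyltransferase of the small subunit, averaged 6.08 ± 0.592 FPKM with doxorubicin and 11.7 ± 1.01 FPKM with PBS (-0.84). NOA1, an assembly GTPase, changed by -0.61 and YBEY, an endoribonuclease, by -0.52. MRM2, a methyltransferase of the large subunit rRNA, averaged 26.5 ± 2.08 FPKM with doxorubicin and 15.3 ± 1.80 FPKM with PBS (0.76). Both lists held genes that moved in opposite directions.

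Of 12 translation factors 4 rose and 2 fell, with a median of 0.06. C6orf203, also known as MTRES1, which binds mitochondrial RNA, rose by 0.88, TACO1, the translational activator of MT-CO1, by 0.73, and GFM2, a recycling factor, by 0.44. MRRF, the ribosome recycling factor, fell by 0.68. Mitochondrial tRNA synthetases included 3 that rose and 3 that fell of 11 (54.5%). CARS2 (0.68) and PARS2 (0.39) rose, and IARS2 (-0.49) and FARS2 (-0.41) fell; they charge cysteine, proline, isoleucine and phenylalanine tRNAs. Of 14 genes of mitochondrial DNA maintenance and transcription 5 rose and 2 fell. POLG, the DNA polymerase, rose by 0.56, MGME1, an exonuclease, by 0.76, and MTERF1, a terminator factor, by 0.42, while POLRMT, the RNA polymerase, fell by 0.63. MGME1 was low, at 2.11 to 3.06 FPKM with doxorubicin and 0.359 to 2.23 FPKM with PBS, and its samples overlapped. Of 7 regulators, MYC fell and ESRRA, a nuclear receptor, rose (28.6% called, below the share of all loci). MYC averaged 116 ± 8.11 FPKM with doxorubicin and 185 ± 9.84 FPKM with PBS (SD, n = 5 and 6; log2 change -0.69), and ESRRA averaged 86.2 ± 9.61 and 52.5 ± 8.11 FPKM (0.72).

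The larger gene groups around the mitoribosome had other counts. Of all loci 51.6% were called, 28.0% higher and 23.6% lower. Among cytosolic ribosomal proteins, 3 rose and 40 fell of 47 tested, with a median of -0.73. They were taken by name, which let in paralogues whose names end in L or L1. Of these, RPL3L (1.16) and RPS27L (1.04) rose, RPL22L1 (-2.39) fell, and RPL7L1 and RPL26L1 did not pass. The remaining gene that rose was RPS7 (0.39). Nuclear genes of the respiratory chain included 4 that rose and 15 that fell of 37, with a median of -0.10. Of 10 loci of mitochondrially encoded mRNAs, the templates of the mitoribosome, 6 rose and 0 fell, with a median of 0.31. The share of mitochondrially encoded loci in a library was 34.9 to 45.6% with doxorubicin and 28.9 to 46.2% with PBS, which overlap, and its part in those rises was not tested. The mitoribosomal genes, at 16 up and 16 down with a median of -0.02, had no such one-sided count.

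**Figure D5:**
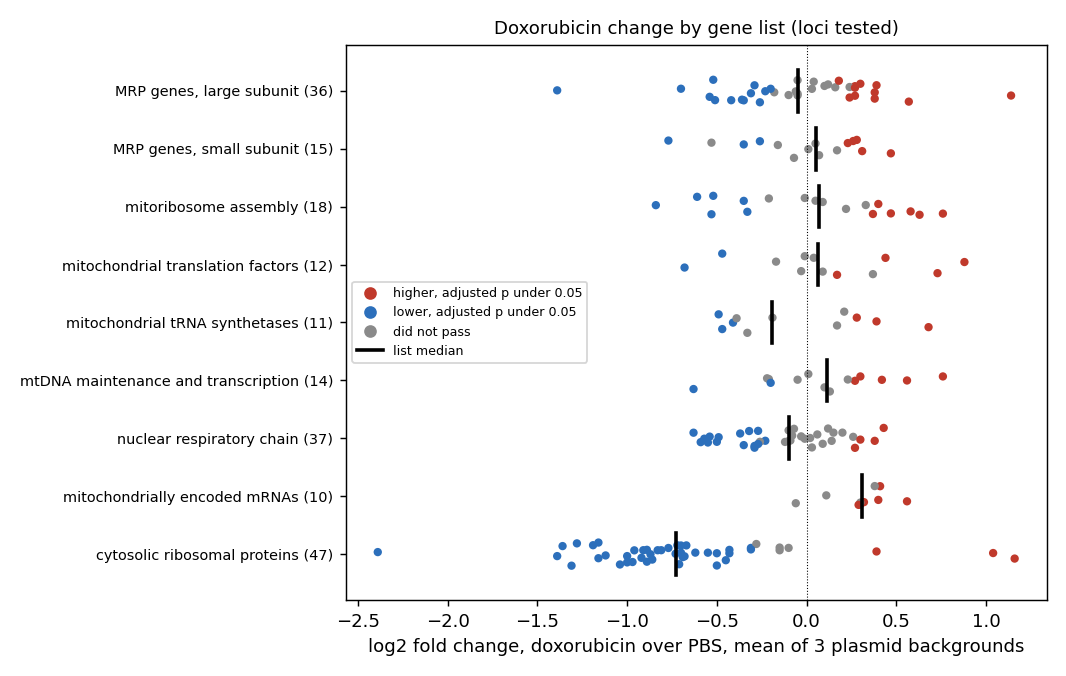
Log2 fold change, doxorubicin over PBS, of the tested loci of each list, with the mitoribosomal genes by subunit at the top, colours for the outcome of limma's test and a bar at each median. The 2 subunits and the assembly factors spread on both sides of 0, and cytosolic ribosomal proteins lie mostly to the left, with a median of -0.73.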

How the data were processed

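Messenger RNA libraries of HCT116 cells were sequenced, 2 in each of 6 groups. The authors deposited FPKM values per locus, made with TopHat and Cufflinks per the submitters' processing notes, which give no versions. Build and read strand: not given in the sources used here. All 12 columns were used, with the closely alike columns of doxorubicin-treated SMC5 cells averaged as FPKM. Depth per library was only estimated, so no counting intervals are given. Groups held 2 samples, and doxorubicin-treated SMC5 cells 1. Over the 52 genes the SE of a log2 change had a median of 0.0794 for doxorubicin averaged over backgrounds, 0.127 within NSE4 or GFP cells and 0.156 within SMC5 cells.

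FPKM were taken as log2(FPKM + 1), which understates changes of low genes, and fitted with limma 3.58.1 in R 4.3.3 (1 fit of 6 groups, 11 samples, 5 residual degrees of freedom, prior variance following the level). Loci with at least 1 FPKM in at least 2 samples entered, 15833 in all, with Benjamini-Hochberg adjustment over all of them and a threshold of 0.05. The 10 comparisons were doxorubicin against PBS (on average and within NSE4, SMC5 and GFP cells), NSE4 and SMC5 against GFP cells (with PBS and with doxorubicin) and both interactions. Genes were named as the 10 of smallest p in each direction on average, up to 4 of smallest p in each direction (or all where fewer than 10 were called) elsewhere, the 5 highest and the 5 lowest by level, those with other roles, and up to 4 of smallest p of each other list. Other genes that passed or that bound a range were named after their values were seen. The genes and lists were chosen with earlier results of these data known. Promoters came from RefSeq (GRCh38.p14) and exon overlaps from GENCODE 29. The fit was tested on simulated data. Tables and figures used pandas 2.3.3, numpy 2.4.6 and matplotlib 3.10.9 in Python 3.11.15. Alternatives were median ratio scaling, quantile normalization, a pseudocount of 0.1, no filter, a filter at 5 FPKM, a replicate block, only the groups compared, 12 columns as separate samples, an adjustment for GC content with and without the block, and leaving out each library.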

Additional observations from a re-analysis of the deposited data

Results flagged for a closer look

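MRPS15, the counterpart of bacterial S15 in the small subunit, had doxorubicin samples on opposite sides of the PBS samples in NSE4 and in GFP cells. It stood at 56.3 and 55.5 FPKM with doxorubicin and 47.0 and 53.4 FPKM with PBS in NSE4 cells, where both doxorubicin samples were above both PBS samples. In GFP cells it stood at 49.0 and 48.0 FPKM with doxorubicin and 49.7 and 49.2 FPKM with PBS, and both doxorubicin samples were below. The difference of the log2 changes, NSE4 minus GFP, was 0.18 (SE 0.18, limma adjusted p = 1), which did not pass.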

How the results depend on the processing

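The count of genes called for doxorubicin averaged over backgrounds, 32, stayed within 1.5 times in every alternative, from 26 without GFP PBS replicate 1 or NSE4 doxorubicin replicate 1 to 36 with the GC adjustment and the replicate block. In single backgrounds the counts moved. In GFP cells (11) they were 20 with quantile normalization, 17 with 12 columns, 18 with the GC adjustment and 6 in a fit of only the groups compared, and 6 to 13 when a library was left out. In NSE4 cells (10) they were 5 in a fit of only the groups compared and 6 to 14 when a library was left out. In SMC5 cells (6) they were 13 with quantile normalization, 21 with 12 columns, which counts 1 sample as 2, 10 with the GC adjustment, 0 in a fit of only the groups compared and 3 to 7 when a library was left out. The causes were not tested, and the single-background counts were not set beside the share of all loci called in the same fits. No sign of a called gene changed in these fits. The log2 change of MRPL51 was 0.01 with quantile normalization, and that of MRPL41 ran from -0.11 to 0.00 when a library was left out (0.00 without SMC5 PBS replicate 2 or SMC5 doxorubicin column 1). Neither gene was called in those fits, but MRPL41 (-0.17), MRPL43 (-0.21) and MRPL50 (0.18) passed with the GC adjustment, with or without the block. All 6 plasmid and interaction counts stayed at 0. Scaling moved the median of all loci by at most 0.05.

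The labels do not tie replicate numbers to a shared batch. Cultures were divided between doxorubicin and PBS, so libraries of both treatments may share a culture, but the labels do not say which. The main fit therefore holds no pairing by culture. Correlations of replicate differences between groups ran from -0.0389 to 0.227. They were over 0.1 in 5 of 15 pairs, all with SMC5 cells with doxorubicin, and over 0 in 11. Taken over all loci tested, many of them low, they cannot decide whether samples of the same number belong together. The main fit did not use the numbers as pairs, but they were not without pattern. The mitochondrially encoded share was higher in replicate 1 in all 6 groups. The difference of replicate 1 minus 2 fell with GC content in all 6 (Spearman rho -0.838 to -0.263). Of the 52 genes, 15 were higher and 2 lower in replicate 2 in all 6. A replicate effect shared by the groups would stand in the error of the main fit. Only the alternatives with a replicate block fitted such an effect, and the effect itself was not tested. With the replicate block, 22 genes were called in GFP, 18 in NSE4 and 12 in SMC5 cells, and with the GC adjustment as well, 23, 21 and 17. Since the share of all loci called in the same fits is not given, these counts do not place the genes above or below it.

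FPKM carry no counts, so the error of low values is not known, and only 5 residual degrees of freedom limit the single-background tests.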

Other observations

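The 26 MRP genes in loci shared with other genes were not counted above, since the value of such a locus cannot be divided. All 26 loci were tested, and 6 rose and 8 fell with doxorubicin on average. Of all loci 51.6% were called (28.0% higher, 23.6% lower), so these counts do not set the 26 apart. Exons of genes on the other strand overlapped exons of 23 of the 52 genes in GENCODE 29, with at least 25% of exon bases in 4, which were MRPL43 (36.9%), MRPL51 (31.3%), MRPS18A (47.0%) and MRPS18C (40.2%). Pseudogenes had 43 rows for 20 of the genes. MRPL57P3 reached 248 FPKM in a PBS library and was listed at 0 in all doxorubicin libraries, whereas MRPL57 itself stood at 16.7 to 19.1 FPKM with doxorubicin and 14.7 to 16.8 FPKM with PBS. Between libraries of a group the largest log2 ratio of any of the genes was 1.89, for MRPS27 in GFP cells with PBS.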
